A study of Mus musculus with 30 samples.

Results

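Mouse orthologues of 10 genes linked to human myopia or to the size of the eye were followed in the sclera, the collagen-rich outer coat of the eyeball. The genes were Prss56, Gjd2, Rasgrf1, Lama2, Zic2, Sntb1, Tox, Kcnq5, Zfp644 and Lrpap1, taken by name from a list, and they are 10 of the 19938 genes that could be followed. Each gene had exactly 1 transcript cluster, a set of probes that reports 1 transcript region, that carried its symbol and no other. Whole-sclera RNA was hybridized to Mouse Gene 1.0 ST arrays, 1 array for each of 30 mice of the albino inbred strain Balb/cJ. There were 6 mice at each of 5 ages, namely 1, 2, 3, 6 and 8 weeks, with no treatment named for any of them. Every age was a separate set of mice, so no animal was followed over time, and whether they were male or female was not stated in the sources used here. Values are log2 signals, so a difference of 1 is a 2-fold change, and the level of a gene is compared between ages, not with the level of another gene. In each of the 10 genes, the value of week 2 replicate 4 equalled the mean of the 6 arrays of that week. That array therefore added nothing to the mean or the spread of week 2. The week 2 SDs given with n = 6 are smaller than those without it. The fit counted it as a separate array, so SEs and adjusted p values may be too small.

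Refractive error arises when the length of the eye does not match the focal power of the cornea and lens, and a long eye is myopic. Visual signals processed in the retina are relayed through the retinal pigment epithelium and choroid to the sclera, whose fibroblasts remodel the extracellular matrix and so set how the eyeball yields. Many of the genes that carry variants linked to refractive error are known for roles in the retina, in neurons or in cell adhesion. In the mouse, the eyes open in the second week after birth and the eye goes on growing into adult life.

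Promoter windows are shown for the called genes that matched the RefSeq table (build GRCm38.p6), because their letters differ in base composition and in motifs. Each window holds 250 bases before and 50 bases after the start that the promoter table uses, which in these genes lies inside the gene span given further on, and 7 of the 10 genes matched the table. Both strands were searched for 5 motifs. The core bound by CRX and OTX2, factors of photoreceptors and pigment epithelium, was searched as TAATCC. The left arm of the element bound by REST, a repressor of neuronal genes, was searched as TTCAGCACC. The E-box, bound by helix-loop-helix factors, was searched with the letters CAGCTG. For the GC box, bound by factors of the Sp family, the letters were GGGCGG. The TATA box, which places the start of transcription, was searched as the run TATAAA. Capitals mark every match. Bases are numbered from 1 at the 5′ end of the printed strand. The Gjd2 window lies at chr2:114013570-114013869 on the minus strand, the Rasgrf1 window at chr9:89909525-89909824 on the plus strand and the Lama2 window at chr10:27616893-27617192 on the minus strand.
Gjd2: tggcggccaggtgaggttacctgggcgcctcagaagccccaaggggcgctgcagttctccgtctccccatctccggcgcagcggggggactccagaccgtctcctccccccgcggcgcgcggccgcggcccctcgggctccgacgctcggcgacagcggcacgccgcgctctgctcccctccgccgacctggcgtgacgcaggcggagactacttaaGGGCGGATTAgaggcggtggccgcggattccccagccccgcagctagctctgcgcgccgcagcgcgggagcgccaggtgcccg
Rasgrf1: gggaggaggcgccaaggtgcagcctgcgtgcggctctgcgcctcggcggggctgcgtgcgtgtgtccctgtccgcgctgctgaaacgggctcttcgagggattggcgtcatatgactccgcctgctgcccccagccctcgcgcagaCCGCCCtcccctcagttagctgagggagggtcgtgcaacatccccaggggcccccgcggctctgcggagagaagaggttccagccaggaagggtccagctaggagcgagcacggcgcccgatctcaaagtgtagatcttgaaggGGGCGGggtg
Lama2: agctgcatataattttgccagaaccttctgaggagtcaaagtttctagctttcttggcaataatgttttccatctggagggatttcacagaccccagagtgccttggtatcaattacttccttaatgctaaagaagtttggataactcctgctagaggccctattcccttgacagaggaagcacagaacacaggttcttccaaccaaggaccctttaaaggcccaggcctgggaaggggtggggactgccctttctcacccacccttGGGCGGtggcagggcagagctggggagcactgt

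The Gjd2 window held 75.0% G and C and 41 CpG dinucleotides, against medians of 52.7% and 7 over 32851 promoter windows of the same length. It held the CRX and OTX2 core on the opposite strand at bases 222 to 227, overlapping a GC box at bases 218 to 223. The Rasgrf1 window held 68.3% G and C, 26 CpG dinucleotides and a GC box at bases 147 to 152 on the opposite strand and at bases 291 to 296 on the printed strand. The Lama2 window was poorer, with 50.3% G and C, 1 CpG dinucleotide and a GC box at bases 268 to 273. Of all windows, 7.06% held the CRX and OTX2 core, 35.7% a GC box, 16.3% the E-box, 13.6% the TATA box and 0.371% the REST arm. A match is a description of the letters and no measurement of binding.

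Over the 5 ages, all 10 genes passed a moderated F test at an adjusted p of 0.05 or less, as did 92.9% of all genes. The 5 ages accounted for between 51.5% of the variance of a gene over the 30 arrays, for Lama2, and 85.1%, for Zfp644. The week means spanned least in Lrpap1, with 0.55, and most in Gjd2, with 1.94 on the log2 scale. Gjd2, Rasgrf1, Zic2 and Lama2 spanned more than 1 log2 unit, and these were the genes called in a comparison between weeks, where a call required a 2-fold difference or more together with an adjusted p no higher than 0.05.

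**Figure D1:**
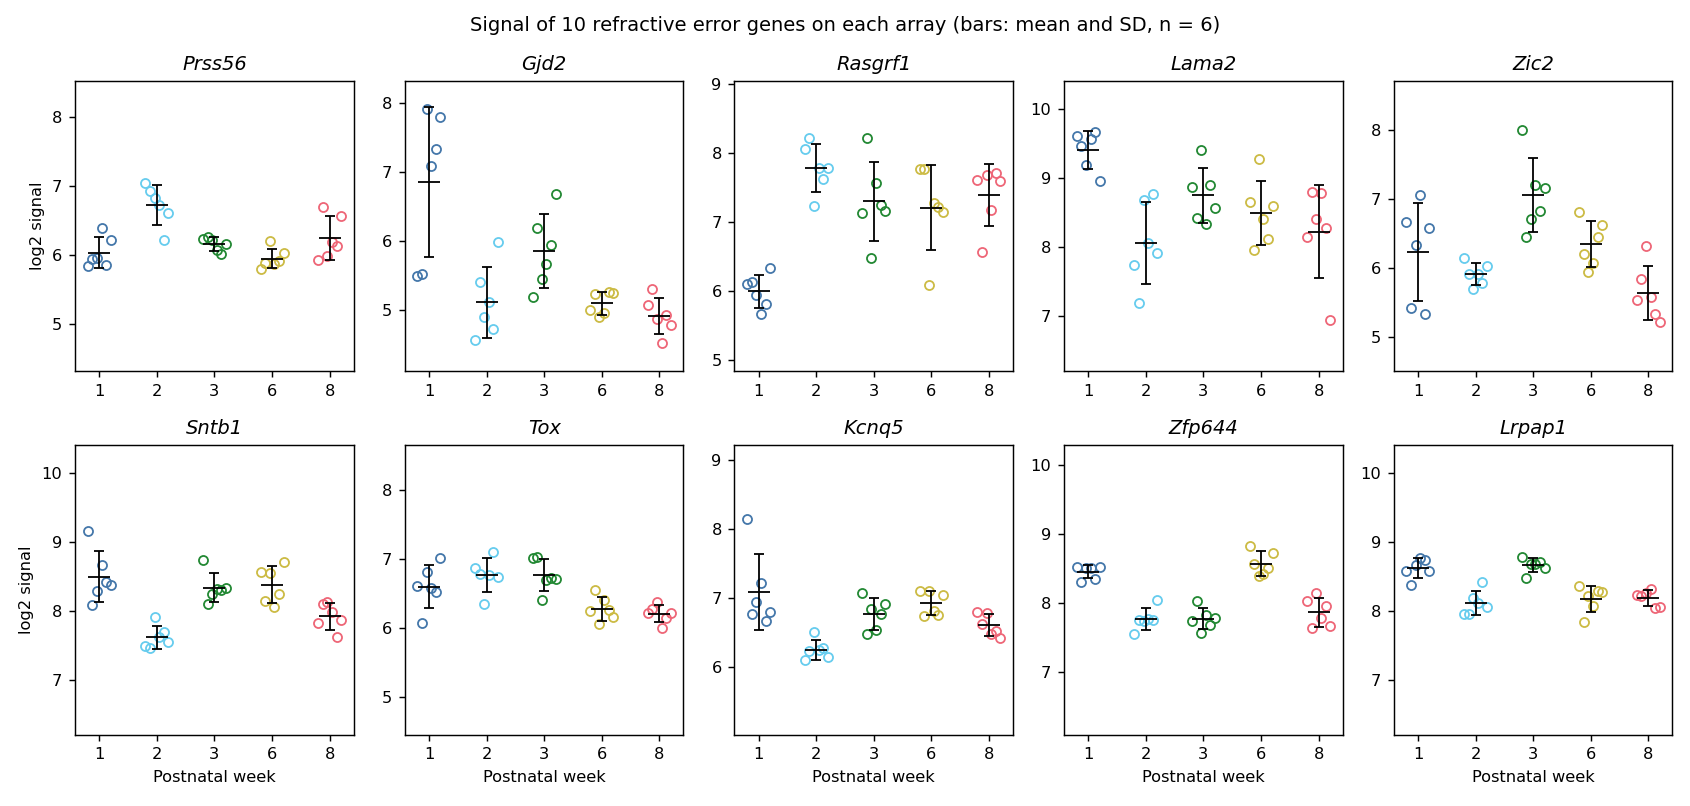
Log2 signal (vertical axis) of the 10 genes against age in weeks (horizontal axis), with 1 point per array and the mean and SD of the 6 arrays of each week. The point of week 2 replicate 4 equals the mean of that week. Rasgrf1 was lowest in week 1 (mean 6.00), Gjd2 and Lama2 were highest in week 1 (6.85 and 9.41), and Zic2 was highest in week 3 (7.06).

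The largest number of calls among the 10 genes fell in comparisons with week 1. In week 2 against week 1, Rasgrf1 was called higher and Gjd2 and Lama2 lower, 3 of 10 genes, where 10.7% of all genes were called. In week 3 against week 1, Rasgrf1 was higher and Gjd2 lower, 2 of 10 genes, against 6.56% of all genes. The same pair was called in week 6 against week 1, where the share of all genes was 5.71%. In week 8 against week 1, Rasgrf1 was higher and Gjd2 and Lama2 lower, 3 of 10 genes, against 7.98% of all genes. These comparisons share the week 1 mice, so they are not separate evidence.

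Away from week 1, Zic2 was the only one of the 10 called. It was higher in week 3 than in week 2, where 3.1% of all genes were called, and lower in week 8 than in week 3, where 2.43% were. None of the 10 was called in week 6 against week 2, week 8 against week 2, week 6 against week 3 or week 8 against week 6, where limma called 3.85%, 1.27%, 4.97% and 1.37% of all genes. Contrasts without moderation called none of the 10 there either. At the adjusted p alone, 5, 2, 4 and 3 of the 10 passed in these 4 comparisons, against 47.8%, 29.6%, 56% and 35% of all genes, and at an unadjusted p under 0.05 they were 6, 4, 5 and 4. In the other comparisons, 8 of the 10 passed in week 2 against week 1, against 72% of all genes. The counts were 5 of 10 (50.1% of all genes) in week 3 against week 1, 5 of 10 (59.2%) in week 6 against week 1 and 9 of 10 (58.9%) in week 8 against week 1. They were 6 of 10 (55.1%) in week 3 against week 2 and 5 of 10 (41.6%) in week 8 against week 3.

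The median log2 fold change of the 10 genes was -0.595 in week 2 against week 1, beside 0.0491 over all genes. It was 0.532 in week 3 against week 2 (0.00737 over all genes), -0.231 in week 6 against week 3 (0.0603), -0.229 in week 8 against week 6 (-0.055) and -0.53 in week 8 against week 1 (0.0431). Of the 10 genes, 7 had the lower mean in week 2 than in week 1. In week 3 against week 2, 7 had the higher mean, and both of these counts rest on the same week 2 mice. How many of all genes moved in these directions was not counted, so the counts have no share of all genes beside them.

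**Figure D2:**
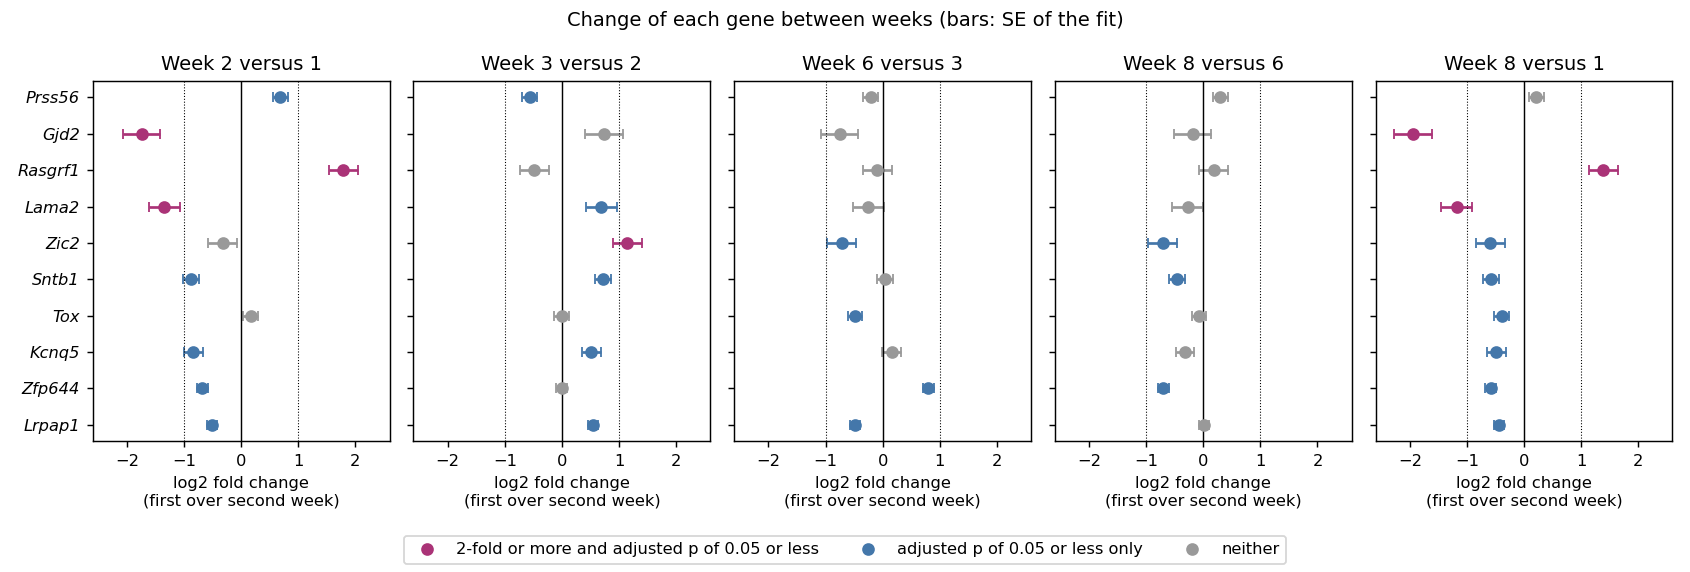
Log2 fold change (horizontal axis, later minus earlier week) with its SE for the 10 genes (vertical axis) in the 4 successive comparisons and in week 8 against week 1. Colour sets called genes from those that passed the adjusted p only and from the rest, and dotted lines mark a 2-fold difference. The calls are Rasgrf1 higher with Gjd2 and Lama2 lower in week 2 against week 1 and again in week 8 against week 1, and Zic2 higher in week 3 against week 2.

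Marker genes of several cell types were followed beside the 10 genes, and their mean signals differed between the ages. The mean log2 signal of the 22 measured genes of scleral fibroblasts and their matrix lay between 8.28 and 10.47 over the 30 arrays. The mean over 21 photoreceptor genes was 8.60, 5.77, 6.99, 6.64 and 6.504 in weeks 1, 2, 3, 6 and 8. Over 12 genes of the retinal pigment epithelium it was 9.46, 6.36, 8.23, 8.87 and 7.75 in the same order of weeks, and over 25 striated muscle genes 10.13, 6.90, 6.67, 9.22 and 9.61. Genes of surface epithelium, 25 in number, went the other way, with 8.09 in week 1 and 10.34, 10.30, 9.97 and 10.49 in the later weeks. In bulk samples, fewer cells of a type and less RNA per cell cannot be told apart. The interquartile range of an array averaged 2.70, 2.36, 2.75, 2.44 and 2.53 in weeks 1, 2, 3, 6 and 8. Because it differed between weeks, using it as a covariate also removes part of the difference between weeks. A call lost with that covariate therefore does not tell array spread from age. The sources used here did not settle which arrays were scanned on which date, and a part of the scan date in these results was not tested.

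Gjd2 encodes connexin 36, the gap junction protein that couples photoreceptors, bipolar and amacrine cells of the retina and many neurons elsewhere. The gene lies at chr2:114009601-114014378 (GRCm38.p6), and its promoter is the window rich in CpG shown above. Its log2 signal lay between 5.50 and 7.91 in week 1 (median 7.20), 4.56 and 5.98 in week 2 (5.003), 5.19 and 6.67 in week 3 (5.80), 4.89 and 5.26 in week 6 (5.11), and 4.51 and 5.29 in week 8 (4.90). Week 1 stood highest and was the most spread. In 24 of the arrays the Gjd2 signal lay below the median of its own array, and these medians ran from 6.151 to 6.369. How well signals this low follow the amount of RNA was not tested.

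Mean Gjd2 signal was 5.11 ± 0.52 in week 2 and 6.85 ± 1.08 in week 1 (SD, n = 6 each), a log2 fold change of -1.74 (SE 0.33, adjusted p = 3.98e-05) or a fold change of -3.35, where the minus sign marks a decrease. Week 2 and week 1 overlapped, because week 1 replicates 1 and 2 were at 5.50 and 5.52 while the other 4 mice of that week lay between 7.08 and 7.91. The log2 fold change was -1.76 in week 6 against week 1 (adjusted p = 7.66e-05) and -1.94 in week 8 against week 1 (adjusted p = 2.2e-05), and in both every later mouse lay below every week 1 mouse. Week 3 was intermediate, at 5.85 ± 0.53 against 6.85 ± 1.08 in week 1, a log2 fold change of -1.005 (adjusted p = 0.0128). That call stood at the fold threshold, and it was lost with median centring (-0.97), with quantile normalization (-0.91) and in a fit of only those 2 weeks (adjusted p = 0.0695). It was also lost when week 1 replicate 3, 4, 5 or 6 or week 3 replicate 1, 3 or 4 was left out, with values between -0.97 and -0.79. In the order of levels, week 1 was followed by weeks 3, 2, 6 and 8, and the neighbours below week 1 had adjusted p values between 0.0596 and 0.977.

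The Gjd2 mice of week 1 that were low were also low in retinal genes. The mean of the 21 photoreceptor genes was 7.40 and 6.94 in week 1 replicates 1 and 2, against 8.93 to 9.78 in the other 4. In week 2 against week 1, 20 of the 21 photoreceptor genes and 7 of the 20 measured inner retinal neuron genes were called lower and none higher. In 4 of the 5 weeks the mouse with the highest Gjd2 signal was also the one with the highest photoreceptor mean, and in none was the lowest mouse the same. For the inner retinal neuron genes the highest mouse was shared in 3 weeks and the lowest in 2, and for the Müller glia genes in 3 and 1. The part of retinal RNA in the Gjd2 result was not tested.

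Rasgrf1 encodes a guanine nucleotide exchange factor that activates Ras when calcium and calmodulin rise, and in the mouse it is an imprinted gene expressed from the paternal copy in brain. It lies at chr9:89909508-90026979. Its log2 signal lay between 5.67 and 6.34 in week 1 (median 6.02), 7.24 and 8.22 in week 2 (7.79), 6.48 and 8.22 in week 3 (7.21), 6.09 and 7.78 in week 6 (7.25), and 6.57 and 7.71 in week 8 (7.60). All mice of weeks 2, 3 and 8 lay above all mice of week 1, and in week 6 only replicate 3 reached down into the week 1 range.

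Rasgrf1 was at 7.79 ± 0.34 in week 2 and 6.00 ± 0.24 in week 1 (SD, n = 6 each), a log2 fold change of 1.79 (SE 0.25, adjusted p = 8.11e-07) or 3.45-fold. Against the same week 1 mice, the log2 fold change was 1.30 in week 3 (adjusted p = 0.000124), 1.21 in week 6 (adjusted p = 0.000267) and 1.39 in week 8 (adjusted p = 5.69e-05). All 4 calls were kept under every alternative run, including each array left out in turn. Leaving out week 2 replicate 4 could not move the week 2 mean, which that array equals. After week 1 the order of the means was week 2, 8, 3 and 6, and no neighbours in it passed the test (adjusted p between 0.246 and 0.802).

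The Rasgrf1 pattern ran beside that of the surface epithelium genes, a list of keratins and desmosome genes of cornea and conjunctiva, of which 25 of 25 were called higher in week 2 than in week 1. The lowest Rasgrf1 mouse was 6.48 in week 3 (replicate 3), 6.09 in week 6 (replicate 3) and 6.57 in week 8 (replicate 2). Those 3 mice were also the lowest of their weeks in the surface epithelium mean, at 8.82, 9.60 and 9.52, against week means of 10.30, 9.97 and 10.49. In 4 of the 5 weeks the lowest mouse was the same for Rasgrf1 and for this list, and in 1 the highest. The part of epithelial RNA in the Rasgrf1 result was not tested.

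**Figure D3:**
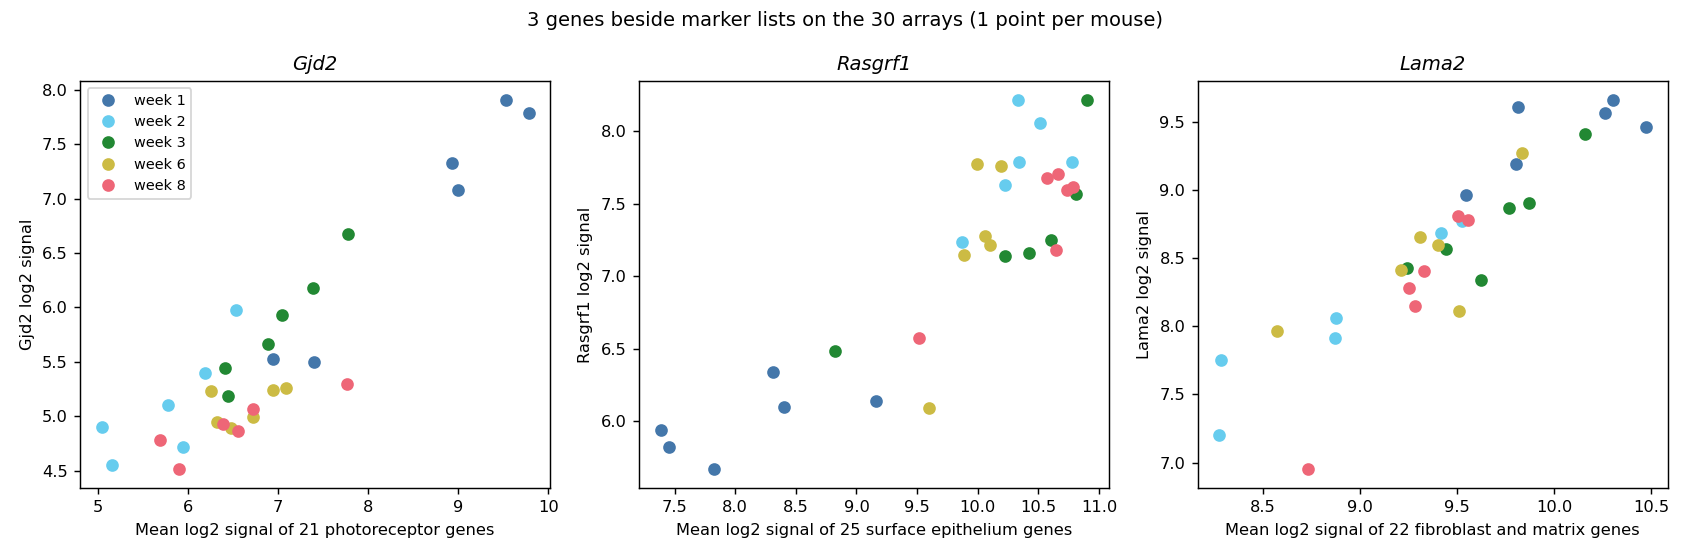
Log2 signal of Gjd2, Rasgrf1 and Lama2 (vertical axes) against the mean log2 signal of a marker list on the same array (horizontal axes: 21 photoreceptor genes, 25 surface epithelium genes and 22 scleral fibroblast and matrix genes), with 1 point per array and a colour for each week. The 4 mice with photoreceptor means of 8.93 to 9.78, all of week 1, have the highest Gjd2 signals, and the mice with low Rasgrf1 signal after week 1 (6.48, 6.09 and 6.57) have the lowest surface epithelium means of their weeks.

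Lama2 and Sntb1 belong to the link between the basement membrane and the cytoskeleton. Lama2 encodes the laminin alpha 2 chain, the laminin of muscle and Schwann cell basement membranes, which dystroglycan binds, and Sntb1 encodes beta-1 syntrophin, an adaptor that binds dystrophin inside the cell. Lama2 lies at chr10:26981285-27617191 and Sntb1 at chr15:55636388-55907302. The log2 signal of Lama2 lay between 8.96 and 9.67 in week 1 (median 9.52), 7.20 and 8.77 in week 2 (7.99), 8.34 and 9.41 in week 3 (8.72), 7.96 and 9.27 in week 6 (8.50), and 6.95 and 8.81 in week 8 (8.34). Week 1 lay above weeks 2 and 8 with no overlap and overlapped weeks 3 and 6.

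Lama2 had a mean of 8.06 ± 0.59 in week 2 and 9.41 ± 0.28 in week 1 (SD, n = 6 each), a log2 fold change of -1.35 (SE 0.27, adjusted p = 0.000102) or a fold change of -2.54. In week 8 it was at 8.23 ± 0.68 against 9.41 ± 0.28 in week 1, a log2 fold change of -1.18 (adjusted p = 0.00079). With each array's interquartile range as a covariate, both calls were lost, at -0.93 (adjusted p = 0.0807) and -0.97 (adjusted p = 0.0176). Without week 8 replicate 6, the lowest mouse at 6.95, the week 8 value was -0.93. Below 2-fold, Lama2 passed the adjusted p in week 3 against week 1 (-0.66), week 6 against week 1 (-0.91) and week 3 against week 2 (0.69). Each of these passes was lost under some alternative. With median centring the adjusted p was 0.058 in week 3 against week 1, with the covariate the week 6 value was -0.59 (adjusted p = 0.205) and that of week 3 against week 2 was 0.20 (adjusted p = 0.835), and with quantile normalization the last was 0.43 (adjusted p = 0.225). The order of levels was week 1, 3, 6, 8 and 2, and below week 3 the neighbours had adjusted p values between 0.449 and 0.692.

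The mean of the fibroblast and matrix genes was 8.88 in week 2 and 10.03 in week 1, and 12 of the 22 were called lower in week 2 than in week 1 and none higher. The mouse lowest in Lama2 was the mouse lowest in this list in 4 of the 5 weeks, week 8 replicate 6 with a list mean of 8.73 among them, and the highest mouse was the same in 3 weeks. For the 12 genes of the retinal pigment epithelium the lowest mouse was shared in 3 weeks and the highest in 3, and week 8 replicate 6 was the lowest of its week there too, at 6.35. For the 25 striated muscle genes the lowest mouse was shared in 2 weeks and the highest in 3. The leukocyte genes shared the lowest in 3 and the highest in 2, and the surface epithelium genes shared none. Of the striated muscle genes, 24 were called lower in week 2 than in week 1. In week 8 against week 1, 5 were called lower, with a mean of 9.61 in week 8 and 10.13 in week 1. The part of these cells in the Lama2 result was not tested.

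Sntb1 dipped in week 2. It was at 8.49 ± 0.37, 7.62 ± 0.16, 8.34 ± 0.21, 8.38 ± 0.27 and 7.92 ± 0.19 in weeks 1, 2, 3, 6 and 8 (SD, n = 6 each). All arrays of week 2, at 7.46 to 7.90, lay below all mice of weeks 1, 3 and 6, whose lowest value was 8.05. The log2 fold change was -0.88 in week 2 against week 1 (SE 0.14, adjusted p = 5.63e-06) and 0.72 in week 3 against week 2 (adjusted p = 0.000191), neither reaching 2-fold. The second of these did not pass with the interquartile range as a covariate, at 0.595 (adjusted p = 0.124), and was 0.48 with quantile normalization. Week 8 was lower than week 6, by a log2 fold change of -0.46 (adjusted p = 0.0125). Weeks 1, 6 and 3 were neighbours at the top of the order with adjusted p values of 0.49 and 0.827, and week 8 against week 2 at its foot had an adjusted p of 0.108.

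Zic2, Tox and Zfp644 encode nuclear proteins. Zic2 is a zinc finger factor that in the mouse directs retinal ganglion cell axons to stay on their own side of the brain at the optic chiasm. It lies at chr14:122475384-122480328. Its log2 signal lay between 5.33 and 7.06 in week 1 (median 6.46), 5.70 and 6.14 in week 2 (5.91), 6.46 and 8.00 in week 3 (6.997), 5.94 and 6.81 in week 6 (6.32), and 5.22 and 6.32 in week 8 (5.56). Week 3 lay above weeks 2 and 8 with no overlap, and week 1 overlapped every other week. The Zic2 signal lay below the median of its own array in 16 of the arrays.

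Zic2 rose to 7.06 ± 0.54 in week 3, against 5.91 ± 0.16 in week 2 (SD, n = 6 each), a log2 fold change of 1.15 (SE 0.25, adjusted p = 0.000595) or 2.21-fold. It fell to 5.64 ± 0.40 in week 8, against 7.06 ± 0.54 in week 3, a log2 fold change of -1.42 (adjusted p = 6.58e-05) or a fold change of -2.67. The comparisons between did not reach 2-fold, at -0.71 in week 6 against week 3 (adjusted p = 0.0188) and -0.71 in week 8 against week 6 (adjusted p = 0.0294). Neither pass was kept throughout: the first was lost with the interquartile range as a covariate (-0.49, adjusted p = 0.29) and without week 3 replicate 1 (-0.52, adjusted p = 0.0718), and the second with median centring (adjusted p = 0.0526) and without week 6 replicate 1 or 6 or week 8 replicate 5 or 6 (adjusted p between 0.0621 and 0.0743). The call of week 3 against week 2 was lost without week 3 replicate 1, the highest mouse at 8.00, where the value was 0.96 (adjusted p = 0.0025), and with the interquartile range as a covariate, where it was 0.86 (adjusted p = 0.219). The call of week 8 against week 3 was kept under every alternative run.

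Tox encodes a factor with a high mobility group box that is needed for T cell development, and it lies at chr4:6686353-6991557. Its log2 signal was 6.60 ± 0.32, 6.77 ± 0.25, 6.77 ± 0.23, 6.29 ± 0.17 and 6.21 ± 0.12 in weeks 1, 2, 3, 6 and 8 (SD, n = 6 each). The earlier 3 ages lay together and the later 2 lay lower. Week 6 differed from week 3 by a log2 fold change of -0.48 (SE 0.13, adjusted p = 0.00247) and week 8 from week 3 by -0.56 (adjusted p = 0.00105), with all mice of week 8 below all mice of week 3. Week 6 against week 3 did not pass with the interquartile range as a covariate (-0.39, adjusted p = 0.0874). The mean of the 17 measured leukocyte genes was 6.48 in week 8 and 6.37 in week 3. Tox shared none of its 10 highest and lowest mice of a week with that list. It shared 4 with each of the photoreceptor, inner retinal neuron and surface epithelium lists. The part of these cells in the Tox result was not tested.

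Zfp644 is the mouse orthologue of ZNF644, a zinc finger gene mutated in some families with high myopia, and it lies at chr5:106616739-106696834. Its pooled SD within weeks was 0.161. Its log2 signal was 8.46 ± 0.10, 7.78 ± 0.16, 7.78 ± 0.15, 8.58 ± 0.17 and 7.87 ± 0.21 in weeks 1, 2, 3, 6 and 8 (SD, n = 6 each). Weeks 1 and 6 were high and weeks 2, 3 and 8 low, and no mouse of a high week, the lowest at 8.31, came down to the highest mouse of a low week, at 8.14. The log2 fold change was -0.68 in week 2 against week 1 (SE 0.10, adjusted p = 7.4e-07), 0.80 in week 6 against week 3 (adjusted p = 7.44e-08) and -0.71 in week 8 against week 6 (adjusted p = 1.8e-06). None reached 2-fold, except that week 6 against week 3 became 1.06 (adjusted p = 7.98e-08) with the interquartile range as a covariate, under which week 2 against week 1 was -0.39 (adjusted p = 0.0157). In the marker lists, Zfp644 shared 6 of its 10 highest and lowest mice of a week with the surface epithelium genes, and at most 3 with any other list. Between weeks that list ran the other way, at 8.09, 10.34, 10.30, 9.97 and 10.49 in weeks 1, 2, 3, 6 and 8. The part of epithelial RNA in the Zfp644 result was not tested.

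Kcnq5 encodes a subunit of the slowly opening potassium channels that carry the M-current of neurons. It lies at chr1:21398399-21962650. Its log2 signal was 7.09 ± 0.55, 6.25 ± 0.14, 6.77 ± 0.23, 6.93 ± 0.17 and 6.61 ± 0.16 in weeks 1, 2, 3, 6 and 8 (SD, n = 6 each). Every mouse of week 2, at most 6.51, lay below every mouse of weeks 1 and 6. Week 2 stood at a log2 fold change of -0.84 against week 1 (SE 0.16, adjusted p = 5.86e-05) and week 3 at 0.52 against week 2 (adjusted p = 0.0102), which did not pass with the interquartile range as a covariate (0.40, adjusted p = 0.396). Week 1 replicate 1 was far above the others of its week, at 8.14, where the next mouse was at 7.21. No neighbours in the order of weeks 1, 6, 3, 8 and 2 passed the test, with adjusted p values between 0.0972 and 0.443.

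Lrpap1 encodes the chaperone that keeps receptors of the low density lipoprotein family from binding ligands in the endoplasmic reticulum, and it lies at chr5:35091490-35105699. It alternated between the first 3 ages, with 8.62 ± 0.14 in week 1, 8.11 ± 0.17 in week 2 and 8.66 ± 0.10 in week 3, and was at 8.17 ± 0.19 in week 6 and 8.18 ± 0.11 in week 8 (SD, n = 6 each). All mice of week 3, the lowest at 8.48, lay above all mice of weeks 2, 6 and 8, the highest at 8.41. The log2 fold change was -0.51 in week 2 against week 1 (SE 0.09, adjusted p = 1.68e-05), 0.55 in week 3 against week 2 (adjusted p = 2.07e-05) and -0.49 in week 6 against week 3 (adjusted p = 4.62e-05). With the interquartile range as a covariate none of these 3 passed, at -0.198 (adjusted p = 0.158), 0.19 (adjusted p = 0.358) and -0.1996 (adjusted p = 0.112), and with quantile normalization the first pair stood at -0.29 and 0.28. Weeks 3 and 1 at the top of the order had an adjusted p of 0.756, and weeks 8, 6 and 2 at its foot 0.934 and 0.595.

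Prss56 encodes a secreted serine protease, made by Müller glia in the mouse retina, whose loss gives a small eye in humans and mice. It lies at chr1:87183102-87188405. Unlike Sntb1, Kcnq5, Zfp644 and Lrpap1 it was highest in week 2. Rasgrf1 was highest there too, as was Tox, with its week 3 mean close beside. Its log2 signal was 6.04 ± 0.22, 6.73 ± 0.29, 6.16 ± 0.10, 5.95 ± 0.14 and 6.25 ± 0.31 in weeks 1, 2, 3, 6 and 8 (SD, n = 6 each). The Prss56 signal lay below the median of its own array in 17 of the arrays. The log2 fold change was 0.69 in week 2 against week 1 (SE 0.13, adjusted p = 4.32e-05), -0.56 in week 3 against week 2 (adjusted p = 0.00087) and -0.77 in week 6 against week 2 (adjusted p = 1.97e-05). With the interquartile range as a covariate, the values of week 2 against week 1 and of week 3 against week 2 did not pass, at 0.26 (adjusted p = 0.226) and -0.07 (adjusted p = 0.854). Every mouse of week 6 lay below every mouse of week 2. The 12 Müller glia genes ran the other way between weeks 1 and 2, with a mean of 7.77 in week 2 and 9.18 in week 1, and 7 of them were called lower in week 2.

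The genes whose 5 week means ran nearest to each of the 4 called genes were looked up among all 19938 genes, each profile centred on its own mean and compared by the root mean square difference. Nearest to Gjd2 were Map2, a microtubule protein of neurons (0.0497 on the log2 scale), and Impg1, a proteoglycan of the matrix around photoreceptors (0.056). Map2 was at 8.19, 6.53, 7.34, 6.53 and 6.32 in weeks 1, 2, 3, 6 and 8, and Impg1 at 6.56, 4.71, 5.57, 4.68 and 4.59. Nearest to Rasgrf1 were Lratd1 (0.0507) and Syt8, a synaptotagmin (0.0513), with Syt8 at 6.76 in week 1 and 8.65, 8.10, 8.12 and 8.22 in the later weeks. Nearest to Lama2 were BC034090 (0.0281) and Ext1, an enzyme that builds heparan sulfate chains (0.0354), with Ext1 at 8.51, 7.19, 7.90, 7.54 and 7.35. Tef, a transcription factor with circadian rhythm in many tissues, was nearest to Zic2 (0.0686), at 8.49, 8.22, 9.40, 8.49 and 7.94. Likeness over 5 means is a description, and it was searched over all genes.

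Other genes linked to refraction were followed as 3 lists, each of which shares 3 genes with the marker lists of other tissues. Of all genes, 10.7% were called in week 2 against week 1 and 3.1% in week 3 against week 2. Of 38 measured genes near other common variants, 1 was called higher and 14 lower in week 2 against week 1, with a median log2 fold change of -0.641 beside 0.0491 over all genes. Rdh5, a retinol dehydrogenase of the pigment epithelium, was at 5.79 in week 2 and 9.53 in week 1, a log2 fold change of -3.74 (SE 0.36, adjusted p = 2.69e-09). Cnga1, the rod channel gated by cyclic GMP, had -3.47 and Gria4, a glutamate receptor subunit, -2.48. Rdh5 was higher again in week 3, at 8.19 against 5.79 in week 2. Bmp2 (1.45) and Bmp4 (1.07), growth factors of bone and eye development, were called with it, the only 3 genes of this list called in that comparison, and all 3 calls were lost with the interquartile range as a covariate (adjusted p between 0.19 and 0.244).

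Of 26 measured genes of rare high myopia, 1 was called higher and 7 lower in week 2 against week 1, among them Trpm1, the channel of ON bipolar cells (-2.39), Cacna1f, the calcium channel of the photoreceptor synapse (-2.06), and Dzip1, a cilium protein (-1.84). Of 10 measured genes of small eyes and hyperopia, 8 were called lower and none higher. Otx2, a homeobox factor of photoreceptors and pigment epithelium, was at 5.52 in week 2 and 9.76 in week 1, a log2 fold change of -4.24 (SE 0.28, adjusted p = 1.18e-11). Mab21l2 (-2.76), a gene of early eye development, and Mitf (-2.41), the master regulator of pigment cells, were next in size. In week 3 against week 2, 4 of these 10 were called higher and none lower, Otx2 (1.90), Tmem98 (1.72) and Mab21l2 (1.65) leading, and with the same covariate these 3 calls were lost (adjusted p between 0.063 and 0.193). That direction is also the one in which 11 of the 12 retinal pigment epithelium genes (lower in week 2 than in week 1) and 10 of the 12 (higher in week 3 than in week 2) were called, and the part of that tissue was not tested.

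**Figure D4:**
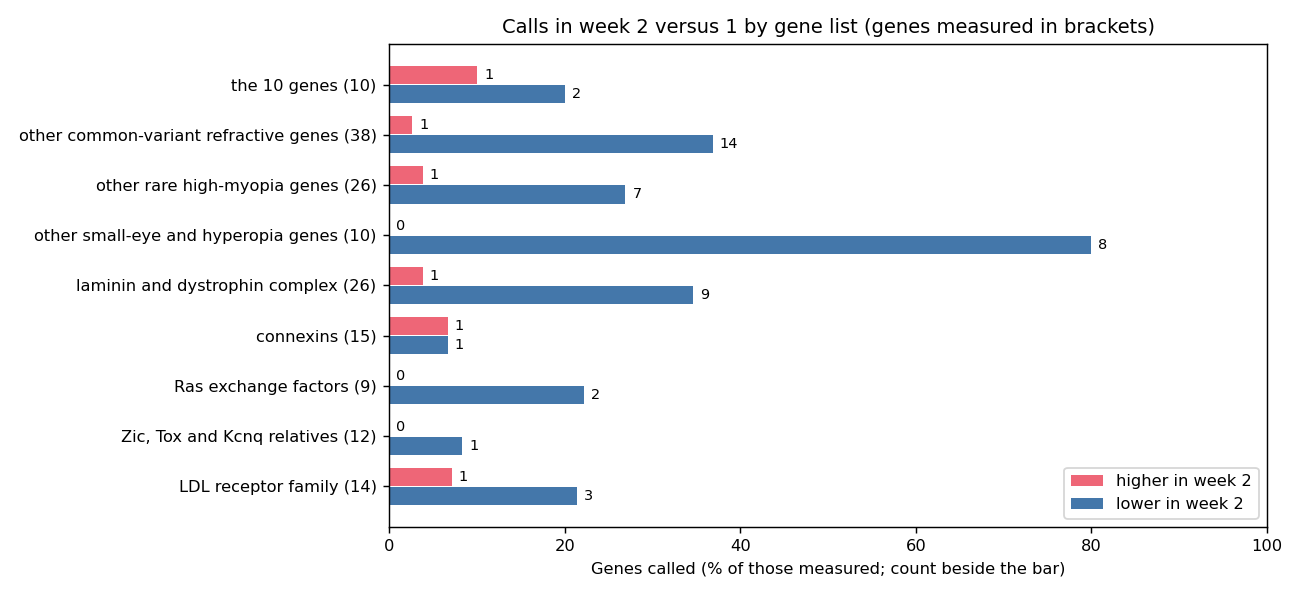
Share of the measured genes of each list (horizontal axis, percent) called higher or lower in week 2 against week 1, for the 10 genes and the lists of related genes, with the count beside each bar. In the small-eye and hyperopia list 8 of 10 genes were called lower, against 2 of the 10 genes followed here, and 10.7% of all genes were called in either direction.

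Relatives of the called genes were followed as lists of their own. Of all genes, 10.7% were called in week 2 against week 1 and 3.1% in week 3 against week 2. The shares were 4.97% in week 6 against week 3 and 7.98% in week 8 against week 1. Of 26 measured laminin and dystrophin complex genes, 1 was called higher and 9 lower in week 2 against week 1. Sgcd, a sarcoglycan of muscle, had a log2 fold change of -2.11 and Dmd, dystrophin, -1.85, while Lama3, the laminin chain of epithelial basement membranes, was at 9.69 in week 2 and 7.61 in week 1, a log2 fold change of 2.09 (adjusted p = 1.85e-08). In week 6 against week 3, 2 of the 26 were called higher and 3 lower, with Sgcd at 1.75, Lama5, a laminin chain of many epithelia and vessels, at -1.75 and Dag1, dystroglycan, at -1.23, or -0.98 with the interquartile range as a covariate. In week 8 against week 1, 1 was higher and 6 were lower, with Lama3 at 1.71, Dmd at -1.49 and Lama4, a laminin chain of vessels, at -1.46.

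Of 15 measured connexins other than Gjd2, 1 was called higher and 1 lower in week 2 against week 1, where 10.7% of all genes were called, a share near that of this list. Gja1, a connexin of fibroblasts and many other cells, had a log2 fold change of -1.19 and Gjb5, a connexin of skin, 1.07, and with that covariate they were under 2-fold, at -0.89 and 0.88. Gja4, a connexin of arteries, was at 6.45 in week 6 and 8.80 in week 3, a log2 fold change of -2.35 (adjusted p = 4.77e-10), and Gja5, another, had -1.69. Of 9 Ras exchange factors other than Rasgrf1, none was called higher and 2 lower in week 2 against week 1, namely Rasgrp3 (-1.91) and Rasgrf2 (-1.33), the closest relative of Rasgrf1, which itself had 1.79. Rasgrf2 was at 5.59 in week 2 and 6.93 in week 1. Both calls were lost with the interquartile range as a covariate (adjusted p = 0.118 for Rasgrp3 and 0.0538 for Rasgrf2).

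Of 12 measured relatives of Zic2, Tox and Kcnq5, 1 was called in week 2 against week 1, beside the same 10.7% of all genes, namely Zic1, another member of the Zic family, with -1.41. Of the 14 measured receptors of the LDL family, which Lrpap1 serves as chaperone, 1 was higher and 3 lower in week 2 against week 1. Lrp8, a receptor for reelin in neurons, had -2.28, Vldlr, another, -1.27 (-0.87 with the covariate), and Sorl1, a sorting receptor, 1.39. In week 3 against week 2, Lrp1 (1.27) and Lrp10 (1.02) were called higher, and with the covariate they were at 0.85 and 0.73. In week 6 against week 3, Lrp10 (-1.45) and Lrp5 (-1.24) were called lower, beside -0.49 for Lrpap1, which passed the adjusted p in that comparison without reaching 2-fold.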

How the data were processed

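Sclera RNA of 30 mice, 1 array each, was analysed from the deposited series table of 35556 transcript clusters. The authors had deposited log2 signals. The study's methods give robust multiarray averaging with removal of batch effects on scan date. The submitters' notes name GCRMA and Partek 6.5, and which was applied to these values was not stated in those sources. Week 2 replicate 4 equalled its week mean in each gene followed. Week 6 replicates 4 and 6 lay evenly about theirs. For Gjd2 they were 4.9492 and 5.2407, about a mean of 5.095. For Rasgrf1 they were 7.2759 and 7.1466, about 7.2113. Whether removal of batch effects left this pattern was not tested, and the main fit did not allow for it. No further scaling was done. Of the transcript clusters, 21789 had 1 gene symbol, 1621 several and 12146 none, by the platform annotation. The brightest with a symbol alone stood for a gene.

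The fit across all of them used limma 3.58.1 (R 4.3.3) with a mean for each week over 30 arrays, and each of the 10 comparisons was adjusted by Benjamini and Hochberg. The fit gave the SEs. Decreases are printed as negative fold changes (earlier over later, with a minus sign). The fit was tested on simulated data with planted changes.

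The members and lists were chosen with earlier results of these data known. All 10 members are named, with the 2 nearest profiles of each that spanned at least 1 log2 unit, and up to 3 genes with the largest changes among those called per related list in the successive comparisons and in week 8 against week 1; not all of these are printed. Gene positions and promoters are those of RefSeq (GRCm38.p6).

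Alternatives were transcript clusters with 1 symbol or above the median signal only, array weights, median centring, quantile normalization, the 2 weeks alone, a block for the replicate number, no moderation, no fold threshold, an interquartile range covariate and each array left out. Precision is limited by the number of arrays. The main fit did not pair mice across weeks by replicate number. The deviations of same-numbered arrays had a median correlation of 0.0104 (-0.412 to 0.462, 60 pairs). For arrays of other numbers it was -0.00333 (-0.489 to 0.478, 300 pairs). A median cannot exclude that some arrays shared a litter or a run.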

Additional observations from a re-analysis of the deposited data

Results flagged for a closer look

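Of 50 sets of 6 mice (10 genes in 5 weeks), 4 held a mouse set far from the others of its week, by a gap above Dixon's critical value for 6 samples, which chance gives in about 1 of 20 such sets. Rasgrf1 was lowest in week 6 replicate 3, at 6.089, where the next mouse was at 7.147. Lama2 was lowest in week 8 replicate 6, at 6.951, where the next was at 8.153. Sntb1 was highest in week 3 replicate 1, at 8.738, where the next was at 8.323. Kcnq5 was highest in week 1 replicate 1, at 8.145, where the next was at 7.215.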

How the results depend on the processing

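No called value of the 10 genes changed sign under an alternative. Their 12 calls were kept in 351 fits and lost in 9 with 1 array left out. Among these removals, that of week 2 replicate 4 could move no week 2 mean, because the array equals it. Every other removal kept that array in the fit. Without week 2 replicate 4 the 12 calls stood. Lama2 then had an adjusted p of 0.0536 both in week 3 against week 2 and in week 3 against week 1. Zic2 in week 8 against week 1 had 0.0546, so these passes were lost. With 1 array left out, the number of genes called ranged from 1 to 2 in week 3 against week 1, from 0 to 1 in week 3 against week 2 and from 1 to 2 in week 8 against week 3. It ranged from 2 to 3 both in week 6 against week 1 and in week 8 against week 1. The number was 1 in week 3 against week 1 above the median signal (where Gjd2 was not tested), with median centring, with quantile normalization and with the 2 weeks alone, and 1 in week 6 against week 1 above the median signal. Array weights gave 2 in week 8 against week 3, Gjd2 being added at -1.04. The interquartile range covariate gave 2 in place of 3 in week 2 and in week 8 against week 1, 0 in week 3 against week 2 and 1 in week 6 against week 3, and that range itself differed between weeks. With no fold threshold the counts were 8, 5, 5 and 9 for weeks 2, 3, 6 and 8 against week 1, 6, 5 and 2 for weeks 3, 6 and 8 against week 2, 4 and 5 for weeks 6 and 8 against week 3, and 3 for week 8 against week 6. Gjd2 in week 8 against week 3 was also called without week 3 replicate 1 (-1.07) or 3 (-1.02) or week 8 replicate 2 (-1.02), and Lama2 in week 6 against week 1 without week 6 replicate 3 (-1.06). With the replicate block, 12 values were called, the same 12 as without it. Of the 50 week levels, 1 moved by more than its SD, Lrpap1 in week 3, at 8.54 with quantile normalization. Of 48 differences that passed neither threshold, 20 changed sign under some alternative, and these are not given as results. The 63 named values of related genes kept their sign in 2508 refits and lost their call in 52, 22 of them with 1 array left out. Averaging all transcript clusters of a gene gave nothing to compare, since each of the 10 had 1.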
